A study of Macaca mulatta with 32 samples.

Results

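CircRNA expression was compared between CA1 and the dentate gyrus (DG) of the rhesus macaque hippocampus, in the 4 libraries labelled CA1 and the 4 labelled DG among the 32 libraries of a survey of 8 brain regions. No library of another region entered the tests. The animals were healthy macaques aged 10 or 20 years. RNA of 2 animals of one sex and age was mixed for each library. The pools are called 10F and 10M (females and males aged 10) and 20F and 20M (females and males aged 20). The same 4 pools, 8 animals in all, were sampled in both regions, so CA1 and DG of one pool came from the same animals. RNA had been depleted of polyadenylated and ribosomal RNA and digested with RNase R, an exonuclease that degrades linear RNA, and circRNAs were counted by their back-splice reads, the reads that run across the head-to-tail junction. The tissue was dissected in bulk, so fewer cells of a type and less circRNA per cell cannot be told apart.

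A circRNA forms when the end of a downstream exon is joined back to the start of an upstream one, which leaves a closed molecule without ends that exonucleases cannot attack. CircRNAs are abundant in neurons, and many come from genes of synaptic proteins. CA1 is the field of pyramidal cells that sends the output of the hippocampus to the subiculum and cortex. DG is built of small, densely packed granule cells that receive the input from the entorhinal cortex, project to CA3 through the mossy fibres and are among the neurons still generated in adult mammals.

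The study listed 3 circRNAs as enriched in CA1 and 3 as enriched in DG, and it designed divergent primers for them, which face away from each other on the linear transcript and amplify only across the back-splice junction. By RT-qPCR the study reported circPPFIA2 as specific to DG and an intergenic circRNA as specific to CA1. Those measurements are separate from the sequencing values and were not analysed here. The primers are shown here 5′ to 3′ because they define the molecules that the candidate results below concern, and their letters are all in lower case because no part of them is singled out.
CA1, intergenic, forward: gtccttgcttccgcttcac
CA1, intergenic, reverse: ccacagtcccatagtcttcca
CA1, MAP3K7, forward: ttattgtagagcttcggcagtt
CA1, MAP3K7, reverse: tccaaaggctcctcttccaa
CA1, ERC1, forward: agaaatcttgaaggaggtggaa
CA1, ERC1, reverse: tatcctgaatctgcttcgtctt
DG, IPO9, forward: ccatcatcactgacagtgtga
DG, IPO9, reverse: gggttggctgtccatacttta
DG, PPFIA2, forward: gcgactgagggtttctttag
DG, PPFIA2, reverse: gagttcagagatttcttcttcc
DG, TAX1BP1, forward: agacagagaaggatgagaagga
DG, TAX1BP1, reverse: tgtagcatcactgaacctcttc

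The CA1 libraries held 79950 (10F), 81358 (10M), 37329 (20F) and 811958 (20M) back-splice reads, and the DG libraries held 43202 (10F), 53580 (10M), 52452 (20F) and 273137 (20M). The 20M library was the deepest in both regions. Of the 52828 circRNAs in the table of all regions, 17116 were found in at least 1 of these 8 libraries, 12479 of them in CA1 and 9807 in DG. Both regions shared 5170, while 7309 were found in CA1 and not in DG and 4637 in DG and not in CA1. These differences between the lists are largely made of rare molecules, since 10640 of the 17116 (62.2%) were found in a single library. The smallest value listed in a library stood for 2 reads, and a value of 0 means that the circRNA was not listed there. A 0 was not confined to rare circRNAs. One of CACNA1A had 206 (10F), 367 (10M), 206 (20F) and 0 (20M) reads in CA1, with the 0 in the deepest library. A 0 is therefore not read as absence, and its cause was not tested.

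After thinning to one depth, the number of circRNAs per library did not separate the regions. After every library had been thinned to 37329 reads, CA1 held 5242 (10F), 3989.9 (10M), 3014 (20F) and 5513 (20M) circRNAs, and DG held 2962 (10F), 3731 (10M), 3664 (20F) and 4211 (20M). The regions overlapped, with a mean in CA1 of 4440 ± 1159 (SD, n = 4) against 3642 ± 515 (SD, n = 4), and the exact permutation test over the 70 assignments of 4 of 8 libraries to CA1 gave a two-sided p = 0.257. The smallest p that this test can give is 0.0286. Thinning does not fully equalise these counts. An unthinned library lists no circRNA below 2 reads, whereas a thinned one also counts circRNAs left with fewer. The counts therefore still depend on the original depth, and CA1 20F, the smallest library, was not thinned.

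The share of back-splice reads taken by the 10 most abundant circRNAs of a library was lower in every CA1 library than in every DG library. It was 8.87% (10F), 9.07% (10M), 9.89% (20F) and 8.33% (20M) in CA1, against 11.7% (10F), 10.7% (10M), 11.4% (20F) and 13.5% (20M) in DG. The groups did not overlap, and the means were 9.04% ± 0.648 (SD, n = 4) and 11.8% ± 1.18 (SD, n = 4) with an exact p = 0.0286. After Benjamini-Hochberg adjustment over the 6 measures compared at the level of libraries the exact p was 0.171, and with the pools kept as pairs it was 0.125, the smallest that 4 pairs allow, so this difference did not pass a threshold of 0.05 once adjusted or paired. Without CA1 20M the exact p was 0.0571.

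Most reads came from exonic circRNAs in both regions. Their share was 76.6% to 77.9% in CA1 and 76.3% to 79.0% in DG (exact p = 0.657). CircRNAs that the table classes as intronic, some of which share one end with an exonic circRNA, took 6.63% to 8.02% of the reads in CA1 and 7.79% to 8.57% in DG, with only CA1 20F inside the DG range (exact p = 0.0857). Intergenic circRNAs took 15.0% to 16.4% in CA1 and 13.2% to 15.2% in DG (exact p = 0.0571). The distance on the genome between the joined ends, as a median weighted by reads, was 4830 (10F), 4090 (10M), 3684 (20F) and 5567 bases (20M) in CA1 and 4312 (10F), 3777 (10M), 3747 (20F) and 3265 bases (20M) in DG (exact p = 0.200). None of these passed after adjustment over the 6 measures (lowest adjusted exact p = 0.171).

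**Figure D1:**
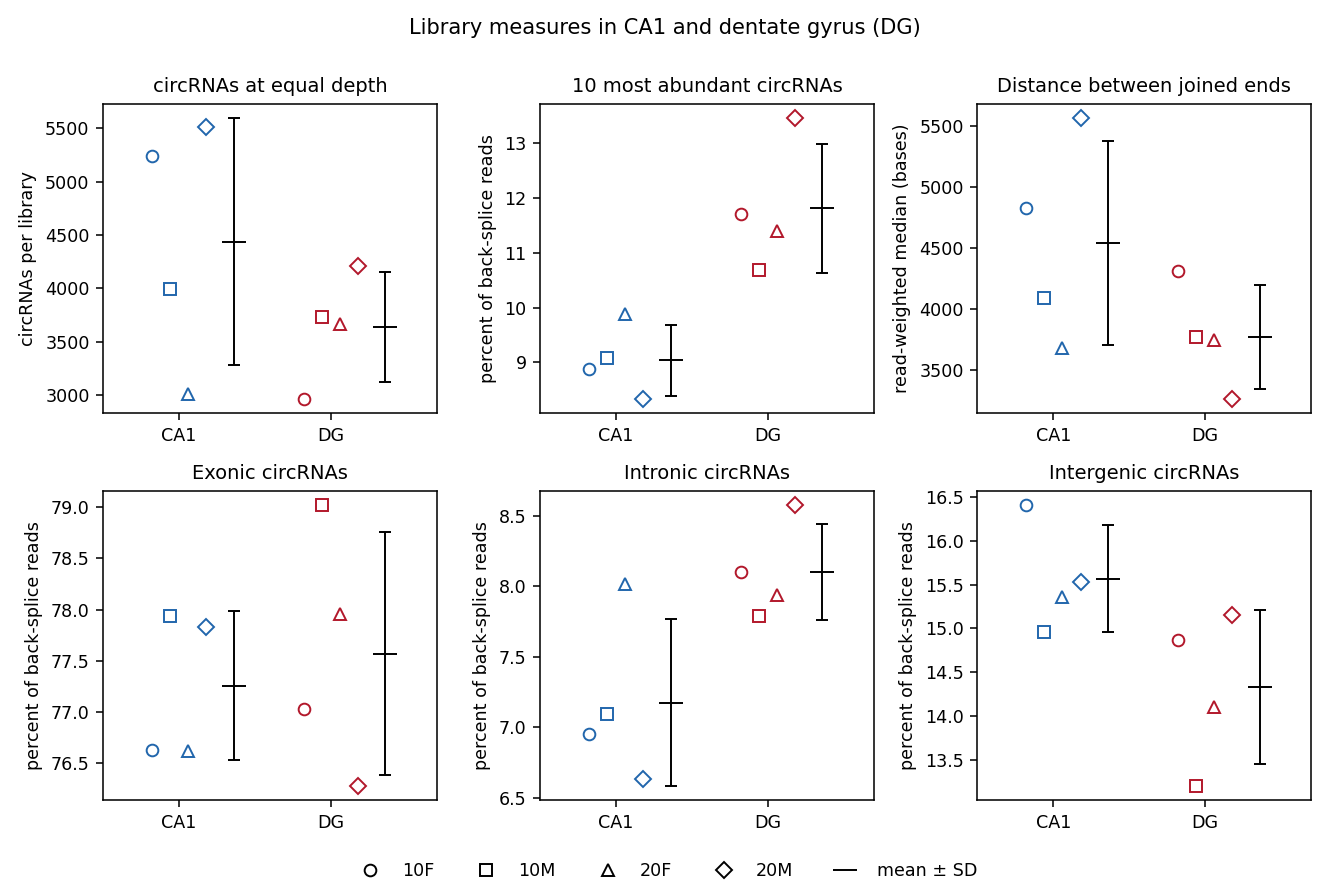
Each panel gives one measure for the 4 CA1 (blue) and 4 DG (red) libraries, with symbols for the pools and the mean ± SD in black; the vertical axes do not start at 0. The share of the 10 most abundant circRNAs lies between 8.33% and 9.89% in CA1 and between 10.7% and 13.5% in DG, while the CA1 and DG libraries overlap in each of the other 5 panels.

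For the test of single circRNAs, reads were divided by size factors, and this normalised read count is the level given from here on. The 2483 circRNAs with at least 3 reads in at least 4 of the 8 libraries were kept, 1962 of them exonic, 143 intronic and 378 intergenic. The libraries resembled each other about as much across the regions as within them. Spearman's rho over the kept circRNAs, given as a description, was 0.308 to 0.404 among CA1 libraries and 0.309 to 0.403 among DG libraries. Between CA1 and DG it was 0.318 to 0.406 for libraries of different pools and 0.364 to 0.400 for those of the same pool.

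No circRNA passed an adjusted p under 0.05 in limma (0 of 2483, 0%, smallest adjusted p = 0.412). At an unadjusted p under 0.05, 95 circRNAs had higher levels in CA1 (3.83% of those tested) and 54 in DG (2.17%). All 4 CA1 libraries exceeded all 4 DG libraries for 63 circRNAs (2.54%), and the reverse held for 28 (1.13%). Of these, 14 and 4 were at 0 throughout the other region. Such circRNAs pass the filter only with at least 3 reads in all 4 libraries of one region, so their lack of overlap was fixed in advance. The median difference over all kept circRNAs was 0.13 on the log2 scale, CA1 minus DG, and the scaling moved it to 0.25 with the deposited TPM, 0.08 with equal totals and 0.37 with voom. The larger number on the CA1 side depended on the pools that entered, since at an unadjusted p under 0.05 there were 48 higher in CA1 and 51 in DG without 20M, 39 and 49 without 10F, 46 and 47 without 20F, and 56 and 36 without 10M.

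The intervals were wide. The median half-width of the 95% confidence interval of a log2 difference was 1.90, and for 5 of the 2483 circRNAs (0.201%) the whole interval lay between -1 and 1, so a 2-fold difference was within the interval of nearly every circRNA. The absence of calls therefore does not show that CA1 and DG had the same circRNA levels. The rest of the values below describe the circRNAs with the smallest p in each direction, and these did not pass the adjusted threshold.

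**Figure D2:**
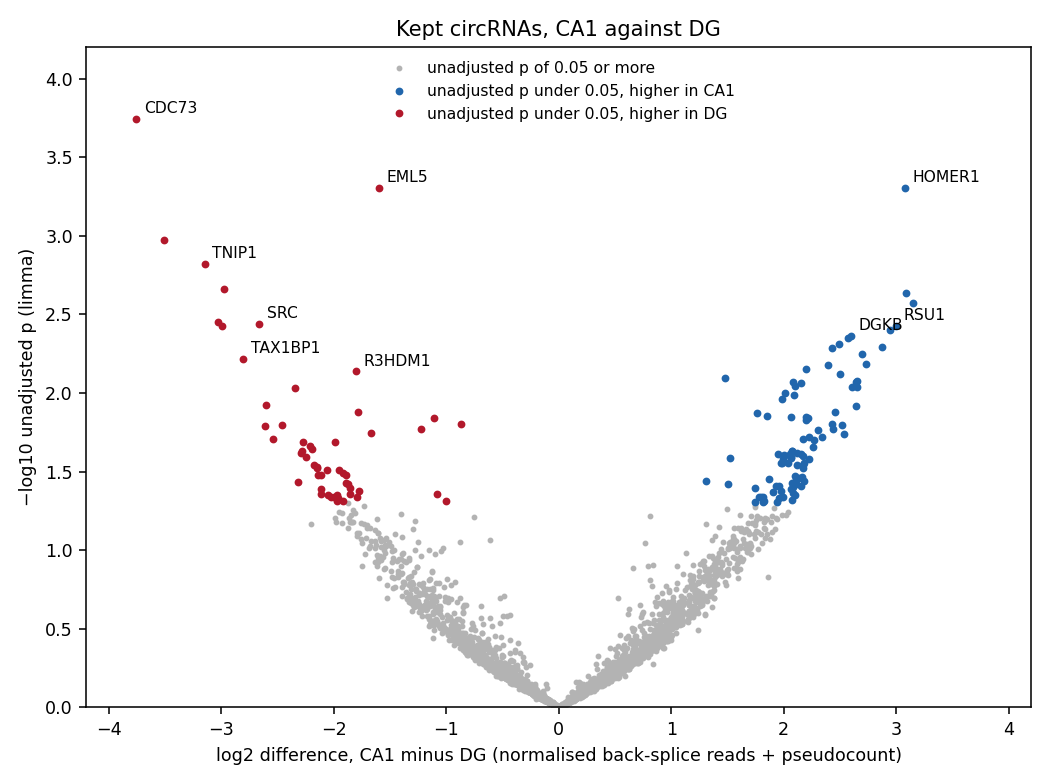
Each point is 1 of the 2483 kept circRNAs, with the log2 difference between CA1 and DG on the horizontal axis and −log10 of the unadjusted limma p on the vertical axis. CDC73 and EML5 lead on the DG side and HOMER1 on the CA1 side, and none of the points passes the threshold after adjustment.

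HOMER1, a scaffold protein of the postsynaptic density that binds metabotropic glutamate receptors, hosted the circRNA with the smallest p on the CA1 side (chromosome 6, 75664580 to 75683702, minus strand, exonic). Its normalised read counts were 125 (10F), 144 (10M), 66.3 (20F) and 76.1 (20M) in CA1 and 21.7 (10F), 13.4 (10M), 10.96 (20F) and 0.723 (20M) in DG. Every CA1 library was at least 3 times as high as every DG library, and the log2 difference was 3.08 (SE 0.78, limma adjusted p = 0.412). Tested among only the 397 circRNAs above 0 in all 8 libraries, this circRNA was the single one called, with an adjusted p = 0.0207. HOMER1 had 2 other kept circRNAs. The one that ended at the same position but began further away, at 75625287, had 7.36, 20.4, 0 and 3.48 in CA1 and 19.8, 13.4, 14.6 and 0 in DG, in the order 10F, 10M, 20F and 20M, and its groups overlapped. The one from 75664580 to 75677750 was at 23.3 (10F) and 25.0 (10M) in CA1 and 0 in both 20-year CA1 pools, with 5.01 (10M) and 9.13 (20F) in DG and 0 in the others.

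Other circRNAs with small p on the CA1 side were near or at 0 in DG. The exonic circRNA of DGKB, a diacylglycerol kinase of neurons, that starts at 111480683, had 7.36 (10F), 22.7 (10M), 20.4 (20F) and 12.6 (20M) in CA1 and 0 in all 4 DG libraries. That of METTL8, a methyltransferase of mitochondrial tRNA, had 12.3, 7.94, 15.3 and 20.6 in CA1 and 0 in DG, and that of TRERF1, a transcriptional regulator, had 12.3, 18.2, 12.8 and 8.90 against 0. CPEB4, which binds cytoplasmic polyadenylation elements of mRNAs, was uneven across the CA1 pools, with 7.36 (10F), 37.4 (10M), 40.8 (20F) and 4.00 (20M), and 0 in DG. An intergenic circRNA on chromosome 4 (65395128 to 65452629) had 13.5, 23.8, 7.66 and 16.3 in CA1 and 0 in DG. These 5 were supported by 86 to 183 reads each, all of them in CA1. Apart from CPEB4, most reads came from the deep CA1 20M library. It gave 98 for DGKB, 160 for METTL8, 69 for TRERF1 and 126 for the intergenic circRNA, which had 3 in CA1 20F. Of the kept circRNAs, 14 were at 0 in all DG libraries and 4 at 0 in all CA1 libraries. These were kept only through the region where they were above 0, so their lack of overlap is no support for a difference.

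RSU1, a suppressor of Ras signalling at focal adhesions, hosted a circRNA at 39.3 (10F), 40.9 (10M), 15.3 (20F) and 40.4 (20M) in CA1, and in DG at 11.9 in 10F and 0 in the other pools. FARP2, an activator of Rac GTPases, was at 40.5, 19.3, 12.8 and 22.1 in CA1 and at 5.01 in DG 10M only. The circRNA of ENSMMUG00000031571, a gene for which no symbol was at hand, was at 7.36, 26.1, 23.0 and 57.5 in CA1 and at 3.65 in DG 20F only. In each of these 3 the lowest CA1 library lay above the highest DG library. The value of ENSMMUG00000031571 in DG 20F stood for 2 reads, under the 3 of the filter. That circRNA was thus kept only through CA1, and its lack of overlap is no support for a difference.

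FANCL, the ubiquitin ligase of the Fanconi anaemia pathway, was even across CA1, at 117 (10F), 101 (10M), 99.5 (20F) and 115 (20M), while the DG libraries fell into 2 levels, with 0 in both 10-year pools and 84.0 (20F) and 55.3 (20M) in the 20-year pools. The circRNA of FAM164A was at 81.0, 42.0, 38.3 and 30.3 in CA1 and at 31.1 in DG 20F and 0 in the other DG libraries. An intergenic circRNA on chromosome 6 (17638855 to 17643405) was at 71.2, 68.1, 89.3 and 57.4 in CA1, and in DG at 61.3 in 10F, 0 in 10M and 20F and 7.59 in 20M. In the latter 2 the highest DG library reached into the CA1 range. The adjusted p was 0.675 for each of these 11.

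CDC73, a subunit of the PAF1 complex that accompanies RNA polymerase II, hosted the circRNA with the smallest p of all, on the DG side (chromosome 1, 177355991 to 177358508, minus strand, exonic). It had 146 (10F), 124 (10M), 132 (20F) and 36.9 (20M) in DG and 19.6 (10F), 0 (10M), 0 (20F) and 13.0 (20M) in CA1. All DG libraries lay above all CA1 libraries, and the log2 difference was -3.76 (SE 0.87, limma adjusted p = 0.412).

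EML5, a microtubule-associated protein, hosted the circRNA with the second smallest p on the DG side. Its joined ends lie only 160 bases apart (chromosome 7, 151959842 to 151960001, minus strand, exonic), and 5986 reads supported it. It had 950.8 (10F), 842 (10M), 923 (20F) and 909.7 (20M) in DG, and 479.9 (10F), 418 (10M), 265 (20F) and 144 (20M) in CA1. The DG libraries lay close together, and all of them exceeded every CA1 library. The log2 difference was -1.60 (SE 0.41, limma adjusted p = 0.412), and voom on the recovered reads called this circRNA and no other (adjusted p = 0.00818). The 3 other kept circRNAs of EML5 share one end with it and were much rarer, and in each the CA1 and DG libraries overlapped. The one that reaches to 151951615 had 6.81 to 19.7 in CA1 and 0 to 21.9 in DG.

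The circRNA of UBE2F, which conjugates the ubiquitin-like protein NEDD8, had 176 (10F), 241 (10M), 146 (20F) and 75.6 (20M) in DG and 0 (10F), 0 (10M), 166 (20F) and 18.4 (20M) in CA1, so that CA1 20F lay within the DG range. Its adjusted p was 0.655 with all libraries and 0.0278 without CA1 20F. It was the only circRNA called when a single library was left out, and only in that case.

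The circRNA of TNIP1, an inhibitor of NF-κB signalling, was at 35.6 (10F), 23.4 (10M), 16.4 (20F) and 19.5 (20M) in DG and 0 in all CA1 libraries. That of SRC, a tyrosine kinase that acts on glutamate receptors at synapses, was at 15.8, 23.4, 12.8 and 11.9 in DG and 0 in CA1, and an intergenic circRNA on chromosome 2 (99407937 to 99433475) was at 25.7, 23.4, 10.96 and 23.1 in DG and 0 in CA1. Each of these 3 rests on 62 to 97 reads, of which DG 20M gave 54, 33 and 64. They too were kept only through the region where they were above 0. C20H16ORF45 was at 19.8, 26.7, 58.5 and 43.0 in DG and at 14.7 in CA1 10F only, and an intergenic circRNA on chromosome 8 (143189877 to 143195285) was at 49.4, 18.4, 29.2 and 39.8 in DG and at 12.8 in CA1 20F only.

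R3HDM1, a protein with a nucleic acid-binding R3H domain, hosted an exonic circRNA of 293 bases between its ends. It was at 127 (10F), 167 (10M), 172 (20F) and 156 (20M) in DG and at 30.7, 19.3, 53.6 and 95.2 in CA1, present in every library and without overlap (log2 difference -1.80, SE 0.62, limma adjusted p = 0.675). PDCD4, an inhibitor of translation initiation, hosted an intronic circRNA that was nearly constant in DG, at 189.8 (10F), 200.5 (10M), 205 (20F) and 178 (20M), and varied in CA1 from 0 (10M) to 148 (20F). The circRNA of USP33, a deubiquitinating enzyme, was at 9.88, 20.1, 25.6 and 52.1 in DG and at 11.05 in CA1 10F only, just above the lowest DG library.

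**Figure D3:**
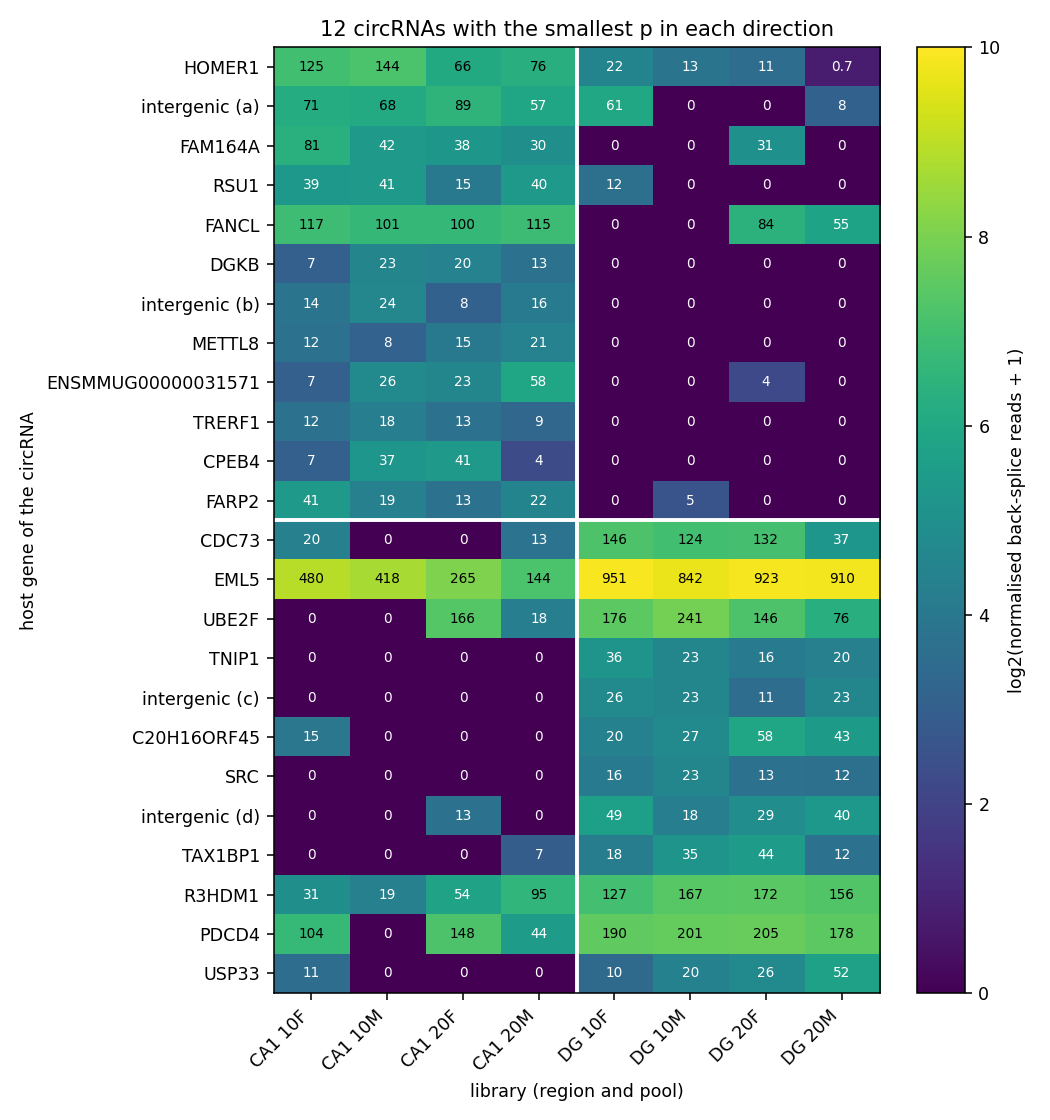
Normalised back-splice reads of the 12 circRNAs with the smallest p on the CA1 side (upper block) and the 12 on the DG side (lower block), by library, with colour on a log2 scale and the value printed in each cell. DGKB, METTL8, TRERF1 and CPEB4 are at 0 in all DG libraries, TNIP1 and SRC are at 0 in all CA1 libraries, and EML5 and R3HDM1 are present in all 8.

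The circRNAs with an unadjusted p under 0.05 differed in the span of the genome that they enclose. From one joined end to the other, the median was 6133 bases over the 95 higher in CA1, 2252 bases over the 54 higher in DG and 4809 bases over all 2483 kept. Distances under 500 bases made up 5 of the 95 (5.26%), 13 of the 54 (24.1%) and 304 of all (12.2%). EML5, TNIP1, SRC, TAX1BP1, R3HDM1 and PDCD4 are among those 13. Exonic circRNAs made up 83.2% of the 95, 81.5% of the 54 and 79.0% of all. Most were not particular to the hippocampus, since the median circRNA of either group was found in 19 of the 24 libraries of other regions, against 18 over all kept circRNAs. These are descriptions of circRNAs chosen for their p, with no test.

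The 8 most abundant circRNAs were present in all 8 libraries, and none was called. The highest came from CEP112, a centrosomal protein (chromosome 16, 61151204 to 61159165), at 1361 (10F), 495 (10M), 1085 (20F) and 768 (20M) in CA1 and 1935 (10F), 1161 (10M), 1544 (20F) and 1793 (20M) in DG. It was higher in DG in each of the 4 pools, with a log2 difference of -0.87 (95% confidence interval -1.55 to -0.18, limma adjusted p = 0.756). MAP7, which recruits kinesin to microtubules, was also higher in DG in each pool, at 382, 801, 676 and 1427 in CA1 and 895, 1006, 1122 and 2404 in DG (log2 difference -0.76, interval -1.55 to 0.04), and so was TBCEL, a relative of tubulin-folding cofactor E, at 555, 479.99, 949 and 851 against 1127, 742, 1186 and 1203 (-0.62, interval -1.32 to 0.09). The regions overlapped for all 3.

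WDR41, a partner of C9ORF72, was at 408 to 1360 in CA1 and 882 to 1677 in DG (-0.49, interval -1.24 to 0.27), and ACAP2, which acts on the GTPase ARF6, was at 327 to 786 and 391 to 1105 (-0.46, interval -1.29 to 0.37). YAF2, a subunit of Polycomb complexes, hosted an intronic circRNA at 303 to 925 in CA1 and 767 to 1031 in DG (-0.43, interval -1.20 to 0.33). The circRNA of GDAP1L1, a relative of glutathione transferases, was the most even, at 763 to 1224 in CA1 and 1008 to 1367 in DG (-0.12, interval -0.75 to 0.52), and so was an intergenic circRNA on chromosome 11 (84928845 to 84929095) at 490 to 759 and 612 to 757 (-0.11, interval -0.82 to 0.60). In these last 2 the interval leaves out a 2-fold difference in either direction. All 8 differences were below 0, that is on the DG side, except that those of GDAP1L1 without CA1 20F and of the intergenic circRNA without CA1 10M were just above 0, while the median over all kept circRNAs was above 0.

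The 3 CA1 candidates of the study were not called. They had been chosen on these samples, by comparing 1 region with the others, so their direction here is no independent evidence. The intergenic candidate (chromosome 15, 55941729 to 55943892, minus strand) was at 61.4 (10F), 106 (10M), 53.6 (20F) and 31.6 (20M) in CA1 and at 0 (10F), 78.5 (10M), 16.4 (20F) and 30.7 (20M) in DG, higher in CA1 in each pool but with overlap between the regions (exact p = 0.229). The candidate of MAP3K7, the kinase TAK1 (chromosome 4, 86462308 to 86465534), was at 13.5, 18.2, 38.3 and 8.25 in CA1 and 0, 6.68, 0 and 11.6 in DG (exact p = 0.0571). That of ERC1, an active zone protein (chromosome 11, 1141773 to 1191816), was at 13.5, 18.2, 51.0 and 7.35 in CA1 and 29.7, 0, 23.7 and 8.32 in DG, with higher levels in DG in pools 10F and 20M (exact p = 0.629), and without CA1 20F its mean difference, CA1 minus DG, turned to -2.43 normalised reads. The limma adjusted p was 0.851, 0.851 and 0.976.

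The 3 DG candidates had been chosen on these samples too, so their tests repeat that choice and are no independent evidence. That of TAX1BP1, an autophagy receptor (chromosome 3, 98438658 to 98438984, minus strand), was at 17.8 (10F), 35.1 (10M), 43.8 (20F) and 12.3 (20M) in DG and at 0, 0, 0 and 6.71 (20M) in CA1. The regions did not overlap (exact p = 0.0286, limma adjusted p = 0.675), and with the pools paired the exact p was 0.125, the smallest that 4 pairs allow. Without any 1 of the CA1 libraries it was 0.0571. The candidate of PPFIA2, liprin-α2 of the presynaptic active zone (chromosome 11, 78405303 to 78425565), was at 227, 105, 144 and 40.9 in DG and 46.6, 68.1, 79.1 and 40.2 in CA1, higher in DG in each pool but almost level in 20M (exact p = 0.143, adjusted p = 0.900). That of IPO9, an importin (chromosome 1, 168633238 to 168635435), was at 39.5, 40.1, 14.6 and 18.1 in DG and 0, 20.4, 0 and 3.10 in CA1 (exact p = 0.0857, adjusted p = 0.767).

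**Figure D4:**
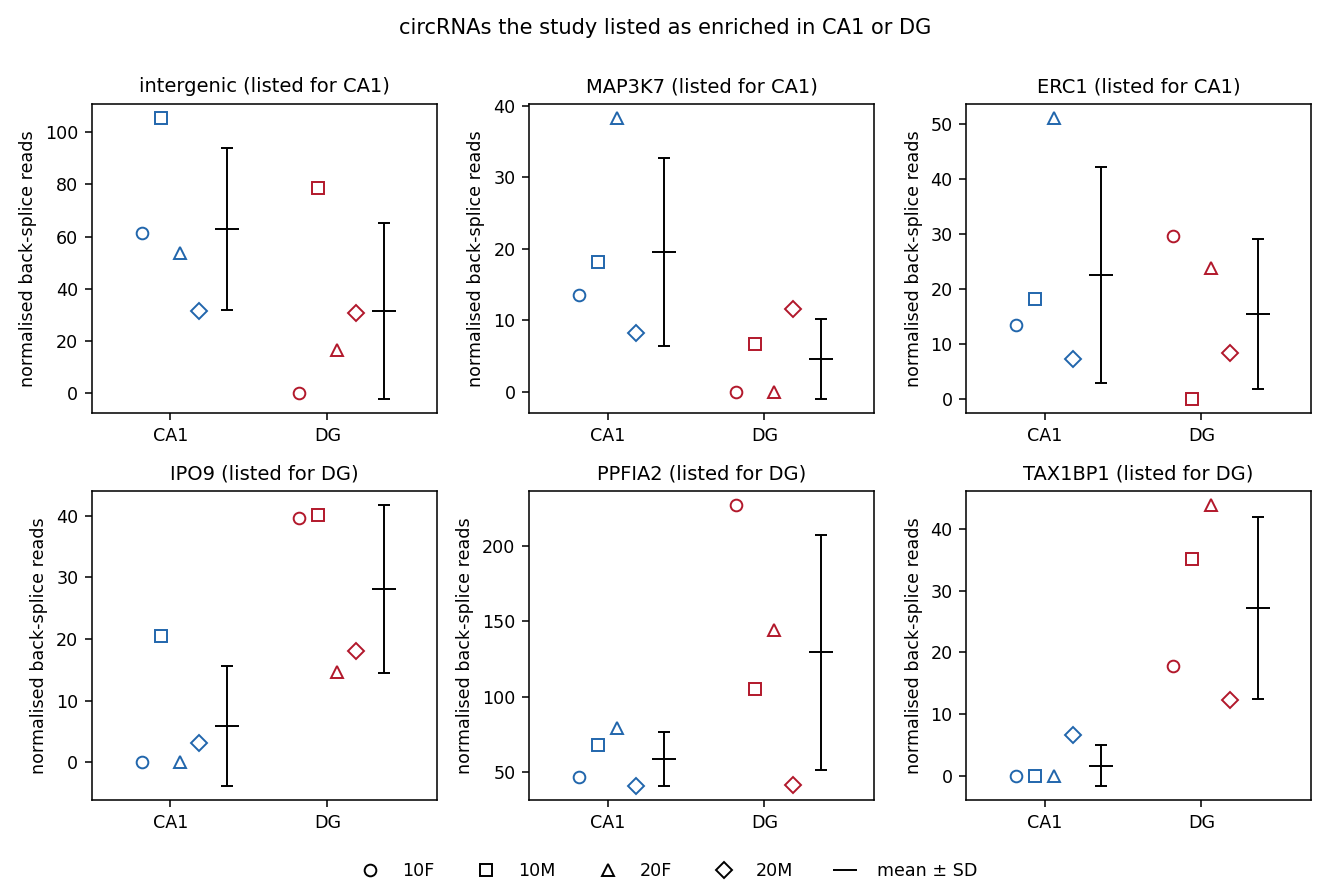
Normalised back-splice reads of the 6 candidates in the 4 CA1 (blue) and 4 DG (red) libraries, with symbols for the pools and the mean ± SD in black. The circRNA of TAX1BP1 separates the regions (0 to 6.71 against 12.3 to 43.8), while the other 5 overlap.

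Summing all circRNAs of a host gene gave the same picture. None of 1912 host genes passed an adjusted p under 0.05 in limma (smallest 0.312), and at an unadjusted p under 0.05 there were 74 higher in CA1 (3.87%) and 43 higher in DG (2.25%). On the CA1 side, GRM8, a presynaptic metabotropic glutamate receptor, had summed counts of 44.2 (10F), 71.5 (10M), 74.0 (20F) and 100.1 (20M) in CA1 and 3.95, 18.4, 16.4 and 20.2 in DG, with no overlap (log2 difference 2.18, SE 0.66, adjusted p = 0.397). C6ORF142, with 5 kept circRNAs, was at 429.6, 819, 370.0 and 279 in CA1 and 225, 200.5, 195 and 32.9 in DG (1.71, SE 0.50). ARHGAP22, an inactivator of Rac, was at 58.9, 86.2, 68.9 and 99.7 against 17.8, 26.7, 27.4 and 0, and NKTR, a cyclophilin-related protein, at 24.5, 18.2, 43.4 and 15.0 against 0, 0, 0 and 1.45. HOMER1, ENSMMUG00000031571, FANCL and RSU1 completed the 8 with the smallest p. Of these 4 sums only that of FANCL overlapped, with 107.8 in DG 20F against 99.5 in CA1 20F.

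On the DG side the sums added 3 genes. COL25A1, a transmembrane collagen of neurons, had 53.4 (10F), 40.1 (10M), 63.9 (20F) and 90.03 (20M) in DG and 18.4, 0, 0 and 16.6 in CA1 from 13 circRNAs, of which 1 was kept (log2 difference -3.02, SE 0.82, adjusted p = 0.362). TIAM1, an activator of Rac at synapses, had 172, 114, 159 and 112 in DG and 55.2, 22.7, 53.6 and 56.4 in CA1 from 17 circRNAs (-1.56, SE 0.51, adjusted p = 0.480), and each of its 4 kept circRNAs had a difference on the DG side of -1.10 to -1.32, with overlap within each. MSL1, a subunit of a histone acetyltransferase complex, had 81.0, 65.2, 132 and 126 against 27.0, 52.2, 23.0 and 19.9. CDC73, EML5, TNIP1, SRC and PDCD4 were the other 5, as for single circRNAs.

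Whether the circRNAs of one gene differed unequally between the regions was tested over 403 genes with at least 2 kept circRNAs. None passed (diffSplice F test in limma, smallest adjusted p = 0.765), and 24 had an unadjusted p under 0.05 (5.96%). The 5 with the smallest p were THRB, TASP1, STX12, DGKB and HOMER1. For DGKB, the circRNA from 111480683 to 111504995 was above 0 in CA1 only, as given above, while that from 111445076 to the same end was at 15.9 to 46.6 in CA1 and 20.1 to 86.9 in DG. The remaining kept circRNA of DGKB starts only 3 bases from the first, at 111480686, and has the same end. It was at 6.14 (10F), 2.27 (10M), 0 (20F) and 16.6 (20M) in CA1 and at 0 (10F), 0 (10M), 16.4 (20F) and 6.87 (20M) in DG, so that a nearly identical junction was found in both 20-year DG pools. For THRB, a thyroid hormone receptor, the circRNA from 166647363 to 166679397 was at 7.36 to 25.5 in CA1 and above 0 in DG in 20M only (5.79), and that from 166765220 to 166782526 was at 42.0 to 66.2 in DG and, in CA1, at 0 in both 10-year pools and 68.9 (20F) and 53.9 (20M) in the 20-year pools. For TASP1, a threonine protease, the circRNA from 46694858 to 46752865 was at 13.5 to 32.0 in CA1 and above 0 in DG in 20M only (5.79), while its 3 other kept circRNAs overlapped. For STX12, a syntaxin of endosomes, one circRNA was at 7.94 to 40.8 in CA1 and above 0 in DG in 20F only (10.96), and the other overlapped.

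The regions were checked against 22 lists of genes. Many of the genes that define the 2 cell types had no circRNA in these libraries. Of 12 markers of DG granule cells 6 had one, and PROX1, CALB1 and C1QL2 did not. Of 10 markers of CA1 pyramidal cells 3 had one, and WFS1, FIBCD1 and POU3F1 did not. The summed level of the granule cell list was 143 to 338 in DG and 74.9 to 135 in CA1 without overlap, and most of it came from PPFIA2. Its 3 kept circRNAs, 2 of PPFIA2 and 1 of PDZD2, all had differences on the DG side (median -1.75), and the second circRNA of PPFIA2 (78261705 to 78307297) was at 17.8 (10F), 35.1 (10M), 9.13 (20F) and 14.5 (20M) in DG and 2.45, 12.5, 0 and 0 in CA1 (adjusted p = 0.824). PPFIA2 is also one of the study's candidates. The summed level of the CA1 pyramidal list was 10.2 to 124 in CA1 and 40.1 to 62.1 in DG, so these markers did not separate the regions, and its 4 kept circRNAs all came from PEX5L, a subunit of HCN channels, with 3 on the CA1 side and 1 on the DG side.

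Markers of other cell types overlapped between the regions, and the part of cell composition in the results was not tested. The CA3 and hilar list summed to 12.8 to 55.6 in CA1 and 3.25 to 19.8 in DG, the interneuron list to 17.2 to 97.0 and 25.7 to 51.8, and the pan-neuronal list to 69.2 to 95.7 and 23.4 to 81.0. The oligodendrocyte lineage list summed to 175 to 272 in CA1 and 195 to 287 in DG, but most of this came from circRNAs that the table names FIP1L1, an mRNA polyadenylation factor, and that entered only because the list of gene names gives their gene ID as PDGFRA. Without them the sums were 25.5 to 82.9 in CA1 and 37.2 to 85.2 in DG. Astrocyte markers summed to 15.3 to 45.4 in CA1 and 0 to 26.8 in DG, endothelial and choroid plexus markers to 0 to 11.7 and 0 to 16.3, and microglia markers to 0 to 19.3 and 0 in all DG libraries. GFAP, ALDH1L1, PVALB, SST, P2RY12 and CLDN5 had no circRNA in these libraries. Among the cell type lists other than that of granule cells, none held a circRNA with an unadjusted p under 0.05. Adult neurogenesis genes, 8 of 23 with a circRNA and 3 kept circRNAs, had a median of 0.39 and summed to 94.4 to 159.6 in CA1 and 73.1 to 150.4 in DG.

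Among receptors, metabotropic glutamate receptors had 2 kept circRNAs. That of GRM8 (chromosome 3, 164433037 to 164435057) was at 39.3, 71.5, 74.0 and 85.5 in CA1 and 3.95, 18.4, 16.4 and 20.2 in DG (log2 difference 2.09, SE 0.76, adjusted p = 0.708), and that of GRM5, which couples to HOMER1, overlapped at 18.1 to 65.1 and 17.8 to 85.0. The 6 kept circRNAs of ionotropic glutamate receptors were split, with 3 on each side and a median of -0.13, and none had an unadjusted p under 0.05. The 5 kept circRNAs of GABA receptors came from 4 genes, GABBR2, GABRG3 and GABRB1 among them. All 5 lay on the DG side (median -0.86), and the list summed to 35.2 to 69.6 in CA1 and 83.5 to 138 in DG (35.2 to 67.3 in CA1 without circRNAs that the table names UBD). None of the 5 had an unadjusted p under 0.05, and the largest difference was that of GABBR2, a subunit of the metabotropic GABA receptor, at 6.14 to 16.1 in CA1 and 15.8 to 45.9 in DG. The granule cell and GABA receptor lists were the 2 of 22 whose sums did not overlap between the regions, both higher in DG. Among single kept circRNAs, 1.13% had every DG library above every CA1 library. A sum pools many circRNAs, also ones that were not kept, so that share does not say how often sums would separate. No test of the sums is given. Most of the granule cell sum came from PPFIA2, whose candidate the study chose on these samples.

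Ion channels had members on both sides. The median was -0.02 over 5 kept circRNAs of voltage-gated calcium channels, -0.08 over 4 of HCN and sodium channels and 0.30 over 7 of potassium channels. CACNA1A, the pore of P/Q-type channels, hosted a circRNA at 253 (10F), 416 (10M), 526 (20F) and 0 (20M) in CA1 and at 249 to 371 in DG, so it was listed at 0 in the deepest of the 8 libraries and present in the other 7. KCNH1, a voltage-gated potassium channel, had 5 kept circRNAs. The one from 159319368 to 159383738 had 23.3, 14.8, 23.0 and 6.71 in CA1 and was above 0 in DG in 10M only (5.01, log2 difference 2.31, SE 0.91, adjusted p = 0.758). Summed over all its circRNAs, KCNH1 was level, at 32.9 to 97.0 in CA1 and 29.7 to 83.2 in DG (log2 difference 0.07).

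Genes of the presynaptic active zone and vesicle release held 36 kept circRNAs with a median of 0.13, close to that of all kept circRNAs, and 2 of them had an unadjusted p under 0.05 on the CA1 side and 1 on the DG side, near the 3.83% and 2.17% of all kept circRNAs. The 2 were from PCLO and STXBP5L. PCLO, a large active zone scaffold, was at 7.36, 3.40, 17.9 and 32.0 in CA1 and at 3.34 in DG 10M only. These 10M values stood for 3 reads in CA1 and 2 in DG. The PCLO circRNA was thus kept only through CA1, and its lack of overlap is no support for a difference. STXBP5L, a tomosyn, was at 24.5, 12.5, 5.10 and 26.2 in CA1 and 9.04 in DG 20M only. The third was the second circRNA of PPFIA2. Summed over all circRNAs of the gene, PCLO was at 27.2 to 92.0 in CA1 and 8.35 to 18.3 in DG, without overlap. STXBP5L, with 4 kept circRNAs, had level sums of 28.1 to 98.2 in CA1 and 43.4 to 62.1 in DG. Postsynaptic scaffolds and plasticity kinases held 40 with a median of 0.12, and 2 had an unadjusted p under 0.05, both on the CA1 side, from HOMER1 and PRKCB, again near the 3.83% of all. PRKCB, a protein kinase C, was at 50.3, 36.3, 20.4 and 23.0 in CA1 and at 31.5 in DG 20M only, within the CA1 range. Synaptic adhesion genes held 9 (median 0.08), with CNTN1 at 4.91 to 44.1 in CA1 and 0 to 5.06 in DG, and axon guidance genes held 8 (median 0.42), 7 of them on the CA1 side and none with an unadjusted p under 0.05.

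Regulators of circularization were sparse, with 7 of 17 genes found and 3 kept circRNAs. QKI, an RNA-binding protein that promotes back-splicing and also marks glia, hosted one at 0, 14.8, 5.10 and 21.5 in CA1 and 19.8, 38.4, 45.7 and 20.2 in DG (log2 difference -1.68, SE 0.90, adjusted p = 0.851). Hosts of circRNAs conserved in mammalian brain had the most kept circRNAs of any list, 42, with a median of 0.57 against 0.13 over all, and 7 had an unadjusted p under 0.05 on the CA1 side and 0 on the DG side, beside 3.83% and 2.17% of all kept circRNAs. Those 7 came from HOMER1, ANKS1B, SLC8A1, SMARCA5 and FBXW7, the list was drawn up with results of these data known, and no test of it was made. ANKS1B, a postsynaptic scaffold, gave 2, and SMARCA5 also gave 2. That of ANKS1B from 99958104 to 100018696 was at 11.05, 6.81, 7.66 and 12.9 in CA1 and 0 in DG. SLC8A1, the sodium-calcium exchanger, was at 6.14, 4.54, 17.9 and 9.54 against 0. Both were kept only through CA1 and could fall only on that side, so they are no support for a difference. Of the 6 kept circRNAs of ANKS1B, that from 99966486 to 99985109 lay on the DG side (log2 difference -1.61). The summed level of ANKS1B overlapped between the regions (log2 difference 0.70). SMARCA5, a chromatin remodelling ATPase, hosted an abundant circRNA at 502 (10F), 561 (10M), 714 (20F) and 231 (20M) in CA1 and at 0 (10F), 589.8 (10M), 692 (20F) and 92.2 (20M) in DG, with DG 10F at 0 and 2 DG libraries within the CA1 range. The summed level of this list overlapped, at 3475 to 4372 in CA1 and 2712 to 3899.8 in DG.

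**Figure D5:**
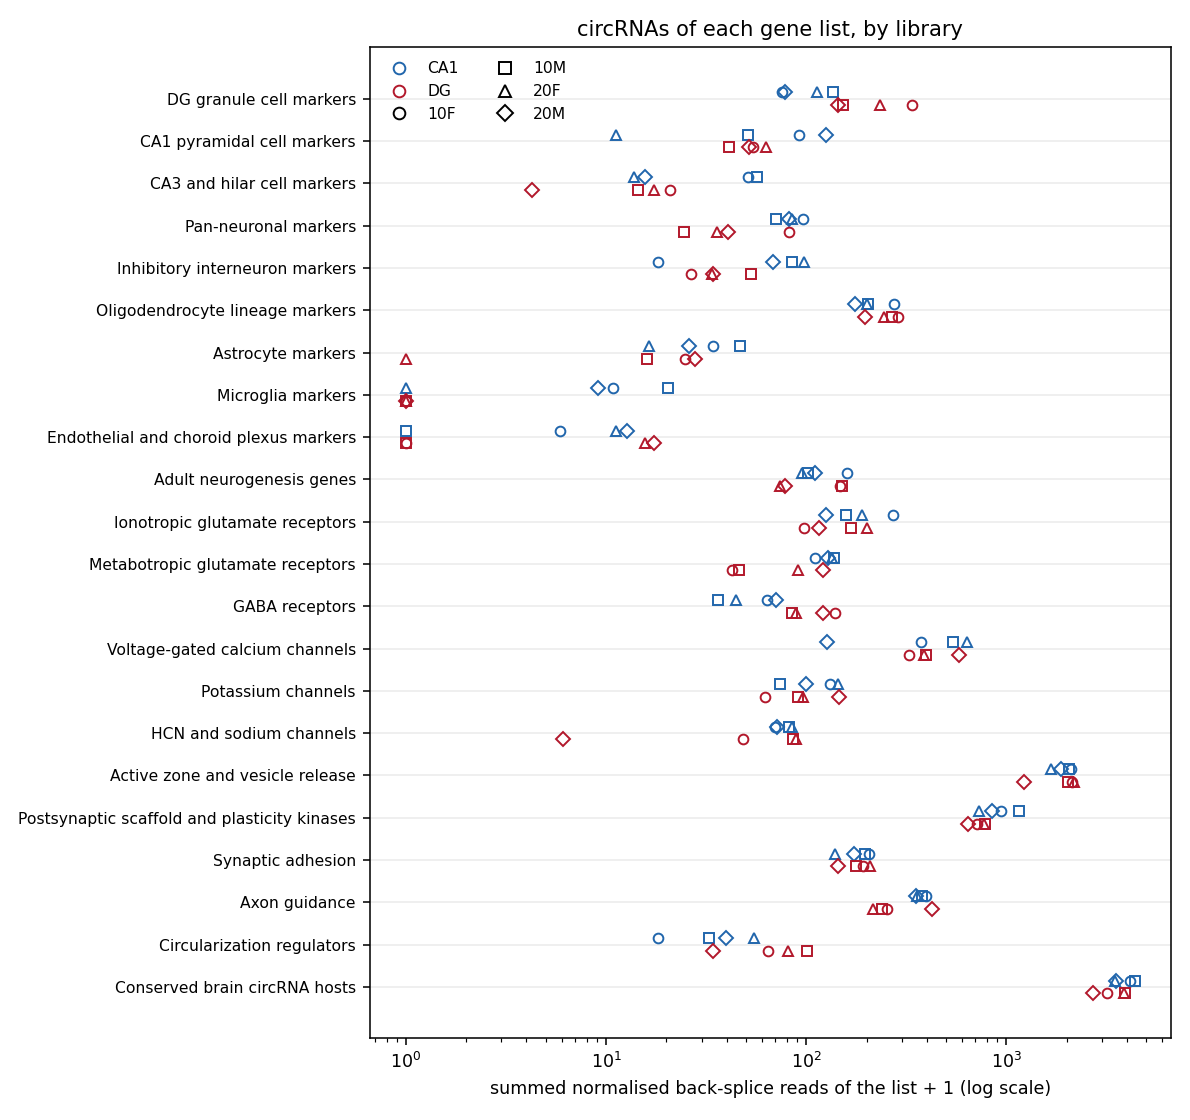
Summed normalised back-splice reads of each of the 22 gene lists, on a log axis after adding 1, for each CA1 (blue) and DG (red) library. The DG libraries lie above the CA1 libraries for the granule cell markers (143 to 338 against 74.9 to 135) and the GABA receptors (83.5 to 138 against 35.2 to 69.6), and the regions overlap for the other 20 lists.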

How the data were processed

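CircRNA expression was taken from the table that the authors deposited, in TPM, with 52828 circRNAs and 32 libraries. Per the study's methods, reads were trimmed with Cutadapt, aligned with BWA to the rhesus macaque genome and searched for circRNAs with CIRI2. The table holds all candidates, before the authors' filter on rare circRNAs. The genome build is not given in the sources used here, and positions, annotation classes and identifiers follow the table as deposited, with symbols from it or from a separate list of gene names. Within each library every deposited TPM value was a whole multiple of 1 step (tolerance 0.1 reads, 100% of values), and the smallest value was 2 steps, so values were read as back-splice reads. Per the methods reads were divided by size factors. The deposited scale differed from median-of-ratios size factors over the 397 circRNAs above 0 in all 8 libraries by a factor of 0.499 (DG 20F) to 1.42 (CA1 10M), so that, relative to the other libraries, values of DG 20F are about 2 times lower in TPM than after size factors. The size factors were used here and TPM in an alternative. Amplified copies cannot be told from separate molecules, and errors cover the spread between pools.

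Log2(normalised reads + 2.90), where the pseudocount is the median over libraries of the smallest normalised value above 0, was fitted with limma 3.58.1 in R 4.3.3 (eBayes with trend, CA1 minus DG) for circRNAs with at least 3 reads in at least 4 of 8 libraries, with Benjamini-Hochberg adjustment over all of them. A fold change on this scale understates the change of low circRNAs, and that of a circRNA at 0 in one region depends on the pseudocount and is not printed. Host genes were summed by gene ID, and unequal change within genes was tested with diffSplice. Library measures and candidates were compared by two-sided exact permutation tests. Thinning used 10 draws. The methods name both unpaired and paired t-tests. CA1 and DG of a pool share their animals, which pairs them by design. The deviations of CA1 and DG from their region means correlated by 0.0186 to 0.105 within pools over 2483 circRNAs. An alternative fit held the pool as a block. The fits were tested on simulated data. Python 3.11.15, NumPy 2.4.6, pandas 2.3.3 and Matplotlib 3.10.9 were used.

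The text names the 12 circRNAs and 8 host genes with the smallest p in each direction, the 8 most abundant circRNAs, the study's candidates, the 5 genes of smallest p for unequal change and up to 4 circRNAs of each list. The comparison and the lists were chosen with earlier results of these data known. The primers are those of the study's supplementary table. RT-qPCR and linear RNA were not analysed here.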

Additional observations from a re-analysis of the deposited data

Results flagged for a closer look

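Within groups of 4, the highest or lowest library stood far from the others, by a gap that took up most of the group's range (Dixon's 95% critical value), in 20 of 122 groups of values checked. The rate of about 1 in 20 that belongs to this critical value holds for normally distributed values. Groups of counts with zeros, or of circRNAs chosen for their p, need not follow it. The number found is therefore not read against that rate. Back-splice reads were far higher in 20M than in the other pools in both CA1 (811958) and DG (273137), and the deposited values of DG 20F summed to the lowest total (107695 TPM).

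A single library above the rest of its region was found in DG for the intergenic circRNA of chromosome 6 (61.3 in 10F), FAM164A (31.1 in 20F), RSU1 (11.9 in 10F), ENSMMUG00000031571 (3.65 in 20F), FARP2 (5.01 in 10M), the NKTR sum (1.45 in 20M) and MAP7 (2404 in 20M). In CA1 the same was found for UBE2F (166 in 20F), C20H16ORF45 (14.7 in 10F), the intergenic circRNA of chromosome 8 (12.8 in 20F), TAX1BP1 (6.71 in 20M), USP33 (11.05 in 10F) and IPO9 (20.4 in 10M). A single library lay below the rest of its region for RSU1 in CA1 (15.3 in 20F), the TIAM1 sum in CA1 (22.7 in 10M), TBCEL in DG (742 in 10M) and the C6ORF142 sum in DG (32.9 in 20M). In 9 of these (FAM164A, RSU1 in DG, ENSMMUG00000031571, FARP2, NKTR, C20H16ORF45, the intergenic circRNA of chromosome 8, TAX1BP1 and USP33) the other 3 libraries of the region were at 0.

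The circRNA of GDAP1L1 was higher in CA1 in both 10-year pools and higher in DG in both 20-year pools. The mean difference of CA1 minus DG was larger at 10 than at 20 years by 375 normalised reads. It was the only one of 59 results checked in which the ages or the sexes were opposite, and the difference was not tested.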

How the results depend on the processing

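No circRNA was called under the replicate block (0), the deposited TPM, equal totals, pseudocounts of 1 or 10, eBayes without trend, or at least 10 reads in at least 4 libraries, and the block changed no other call across circRNAs and genes. Voom called 1 (EML5, DG higher), the filter above 0 in all 8 libraries 1 (HOMER1, CA1 higher) and no filter 6 (CFLAR, SMARCA5, RILPL1 and an intergenic circRNA higher in CA1, EML5 and CEP112 higher in DG), named after their values were seen. Of the 4 higher in CA1, each was at 0 in 1 DG library. An unpaired t-test at an unadjusted p under 0.05 gave 135. Leaving out 1 library or 1 pool gave 0 to 1. For host genes, no filter gave 3 (SMARCA5 and RILPL1 higher in CA1, EML5 higher in DG), the t-test 112, and leaving out libraries 0. At an unadjusted p under 0.05, 149 circRNAs became 331 with voom, 269 without filter, 73 at 10 reads, 30 above 0 in all libraries and 88 to 99 without a pool, where fewer circRNAs were tested except with voom and without filter. For unequal change the count was 0 throughout.

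With the pools as a paired block, the share of the 10 most abundant circRNAs (-2.77 percentage points, CA1 minus DG) and TAX1BP1 (-25.6 normalised reads) had an exact p = 0.125, the smallest possible. Leaving out 1 library, the 10-circRNA share was -3.15 to -2.22 (exact p = 0.0571 without CA1 20M), the intronic share -1.21 to -0.74 (exact p = 0.0286 without CA1 20F), the intergenic share 0.86 to 1.51 (exact p = 0.0286 without DG 20M), MAP3K7 8.74 to 18.7 (exact p = 0.0286 without CA1 20M), PPFIA2 -100.5 to -38.3 (exact p = 0.0286 without DG 20M) and TAX1BP1 -30.6 to -20.0 (exact p = 0.0571 without each CA1 library). Leaving genes out of the lists whose deposited symbol is another name was tried after seeing the data. Of 48 named circRNAs and genes, 46 kept their direction in all settings, while GDAP1L1 ranged from -0.24 to 0.019 (without CA1 20F) and the intergenic circRNA of chromosome 11 from -0.21 to 0.00175 (without CA1 10M). The causes were not tested. Depth limits the rare circRNAs, since a median of 4 of 8 libraries was at 0 among the 621 with the lowest levels.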
